A study of Arabidopsis thaliana with 2 samples.

Results

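These 9 Arabidopsis genes lie in 2 tandem clusters on chromosome 4 and encode secreted proteins of the lipid-transfer class. They were picked by locus identifier, with their values in the table already known, and are 9 of the 6791 genes that the deposited table lists. The AT4G22470 to AT4G22517 cluster gives 5 of them and the AZI1 and EARLI1 cluster gives 4. The clusters are 4.43 Mb apart. The study compared wild-type Arabidopsis thaliana with ago1-27, which weakens but does not abolish ARGONAUTE1 (AGO1), the main microRNA-binding protein of plants. No other allele, transgene or treatment is named in the labels. Soil-grown plants were kept at 20 °C under 16 h of light and 8 h of dark, and the tissue is described as open flower buds. The plants' age is not given in the sources used here. Each genotype was described as 3 biological replicates, but the table gives 1 RPKM value per genotype (reads divided by transcript length in kilobases and by the mapped reads of the library). Every difference below is therefore a comparison of these values, without SD or p-value.

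Lipid-transfer proteins share a fold held together by 8 cysteines, which form a pocket for fatty acids and other lipids. In hybrid proline-rich proteins this cysteine domain follows a stretch rich in proline, which is thought to tie such proteins to the cell wall. AZI1 (AZELAIC ACID INDUCED 1) takes part in priming salicylic acid responses and in systemic immunity after azelaic acid or a pathogen. EARLI1 is known as an aluminium-induced and cold-induced gene that also responds to vernalization. The roles of the other 7 are less well described.

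The table lists only genes with unequal values, 4711 higher and 2080 lower in ago1-27, and no ratio lay between 0.912 and 1.50005. Library totals read from the steps of low values were 10453032 to 13887069 reads for wild type and 11407616 to 12294210 for ago1-27. AGO1 itself had 53.1 RPKM in wild type against 175 in ago1-27. Since the mutant still makes the transcript, this is no check of the labels. Of 9 floral identity genes 3 were listed, each differing by less than 1 on the log2(RPKM + 1) scale. AP1, a gene of floral meristem and sepal identity, had 0.0779 RPKM in wild type against 0.733 in ago1-27, under 1 RPKM in both. The meristem identity gene LFY was at 0.151 and 1.17 RPKM, and the MADS-box gene SEP4 at 12.5 and 6.22. Of 5 genes of green tissue 3 were in the table. All 3 had lower values in ago1-27, 2 of them by more than 1 on that scale. The chlorophyll-binding genes LHCB2.1 and LHCB1.1 were at 49.4 and 15.1 and at 74.5 and 25.3 RPKM. RCA, the leaf-abundant Rubisco activase, was at 5341 and 3390 RPKM, a smaller difference. In wild type, AP1 near the floor beside RCA at 5341 RPKM sits poorly with flower buds as the tissue, although SEP4 was detected. The tissue was not checked further, and floral genes that the table does not list have no value here. The part of tissue make-up in the differences between genotypes was not tested. In such bulk tissue, fewer cells of a type and less RNA per cell cannot be told apart.

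The coding sequences split the 9 genes into 3 groups, shown here by the stretch from the first to the last cysteine codon of the 8-cysteine motif, read from the TAIR10.1 genome and the RefSeq annotation. The stretches of 6 genes are printed, 1 pair from each group, in the coding direction with every cysteine codon in capitals. In AT4G22485 a further cysteine codon, outside the 8 of the motif, lies in the longest gap between motif cysteines. The first pair holds neighbours of the AT4G22470 cluster whose values went in opposite directions, at chr4:11840322-11840555 and chr4:11844512-11844745 on the minus strand. The second pair holds the near-identical copies at chr4:11854955-11855206 and chr4:11856897-11857148 on the plus strand. The third pair holds the most alike genes of the AZI1 cluster, at chr4:7409836-7410084 and chr4:7414375-7414623 on the minus strand.
AT4G22470: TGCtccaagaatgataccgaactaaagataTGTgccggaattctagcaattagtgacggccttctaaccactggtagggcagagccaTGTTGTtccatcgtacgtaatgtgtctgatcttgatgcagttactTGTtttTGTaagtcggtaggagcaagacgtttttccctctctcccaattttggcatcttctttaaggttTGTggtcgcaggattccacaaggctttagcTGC
AT4G22485: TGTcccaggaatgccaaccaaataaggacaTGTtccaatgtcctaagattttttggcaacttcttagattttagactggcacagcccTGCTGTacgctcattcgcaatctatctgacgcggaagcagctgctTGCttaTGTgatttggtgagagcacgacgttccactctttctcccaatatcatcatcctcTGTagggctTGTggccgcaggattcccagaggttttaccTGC
AT4G22513: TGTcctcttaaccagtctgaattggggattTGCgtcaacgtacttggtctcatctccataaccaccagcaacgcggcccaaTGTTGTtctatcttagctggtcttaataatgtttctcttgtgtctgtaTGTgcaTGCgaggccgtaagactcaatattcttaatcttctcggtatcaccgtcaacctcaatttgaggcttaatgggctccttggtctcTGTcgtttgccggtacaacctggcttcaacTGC
AT4G22517: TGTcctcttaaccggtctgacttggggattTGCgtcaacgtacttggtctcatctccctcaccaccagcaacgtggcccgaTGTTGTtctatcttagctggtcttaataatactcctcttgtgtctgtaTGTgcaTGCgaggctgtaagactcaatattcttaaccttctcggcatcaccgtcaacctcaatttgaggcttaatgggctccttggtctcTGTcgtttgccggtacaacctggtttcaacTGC
AT4G12490: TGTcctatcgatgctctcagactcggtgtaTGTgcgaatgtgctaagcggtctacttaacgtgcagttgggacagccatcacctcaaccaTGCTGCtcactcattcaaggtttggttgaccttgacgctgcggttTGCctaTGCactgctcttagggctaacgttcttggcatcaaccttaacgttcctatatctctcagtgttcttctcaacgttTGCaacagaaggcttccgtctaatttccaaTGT
AT4G12500: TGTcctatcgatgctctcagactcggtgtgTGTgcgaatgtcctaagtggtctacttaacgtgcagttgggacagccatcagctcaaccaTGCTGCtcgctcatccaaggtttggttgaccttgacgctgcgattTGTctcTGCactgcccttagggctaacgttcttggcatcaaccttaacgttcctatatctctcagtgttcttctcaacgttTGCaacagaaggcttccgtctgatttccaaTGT

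The motif was searched for as C, C, CC, CXC, C, C, so this order and the 1 codon inside CXC were set by the search. All 9 genes had a match, and in each the first gap was 9 codons, as was the last. The remaining gaps were the same inside each group. As a set they differed between groups, although groups shared some of the lengths. AT4G22470, AT4G22485 and AT4G22505 had gaps of 18, 13, 1 and 20 codons between the outer ones. AT4G22513 and AT4G22517 had 16, 14, 1 and 27 codons. AZI1, EARLI1, AT4G12490 and AT4G12500 had 19, 13, 1 and 24 codons. Within the AZI1 group, 88.4% to 95.6% of the alignment columns of this stretch were identical. Between AT4G22513 and AT4G22517 it was 94.8%, with 13 of 252 columns differing. Among AT4G22470, AT4G22485 and AT4G22505 it was 62.8% to 68.8%, and between genes of different groups 48.0% to 53.1%.

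**Figure D1:**
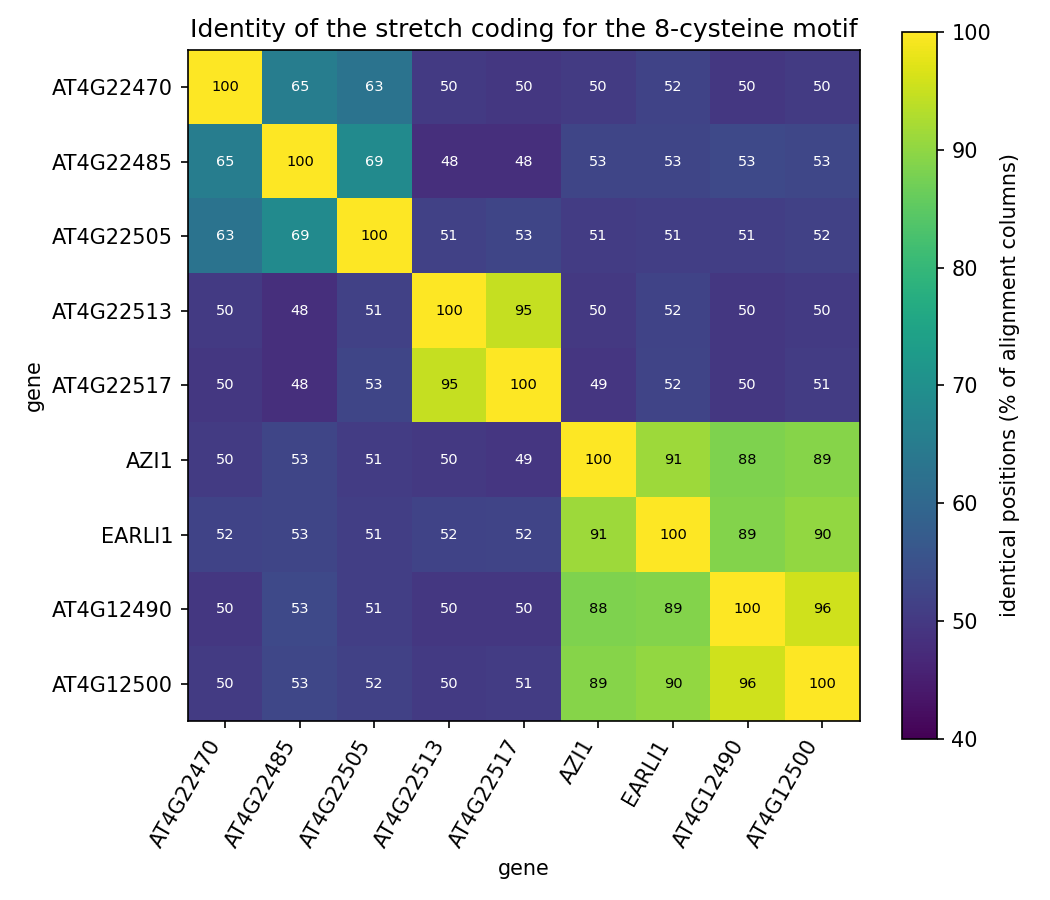
Percent of alignment columns with the same base in the stretch coding for the 8-cysteine motif, for each pair of the 9 genes. The 4 genes of the AZI1 cluster form 1 block at 88.4% or more, AT4G22513 and AT4G22517 a pair at 94.8%, and AT4G22470, AT4G22485 and AT4G22505 a looser block at 62.8% to 68.8%.

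The proline-rich part set the groups apart as well, and for a pair of genes it goes against the name hybrid proline-rich. Before the motif, 46.1% of the codons of AT4G22485 and 48.8% of those of AT4G22505 encode proline. These are long genes, of 656 and 530 codons. In AT4G22470, of 375 codons, the share was 34.5%, and a second, earlier match to the cysteine pattern was found. In the AZI1 group it ran from 24.7% to 27.6% over 77 to 98 codons. AT4G22513 and AT4G22517, of 115 codons each, had 3.45% proline in the 29 codons before the motif. By this count they have the cysteine motif but no proline-rich part.

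All 9 genes were annotated with 1 exon. The AZI1 cluster spans 13.9 kb with its 4 genes on the minus strand. The AT4G22470 cluster spans 17.2 kb, with AT4G22470, AT4G22485 and AT4G22505 on the minus strand and AT4G22513 and AT4G22517 on the plus strand.

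**Figure D2:**
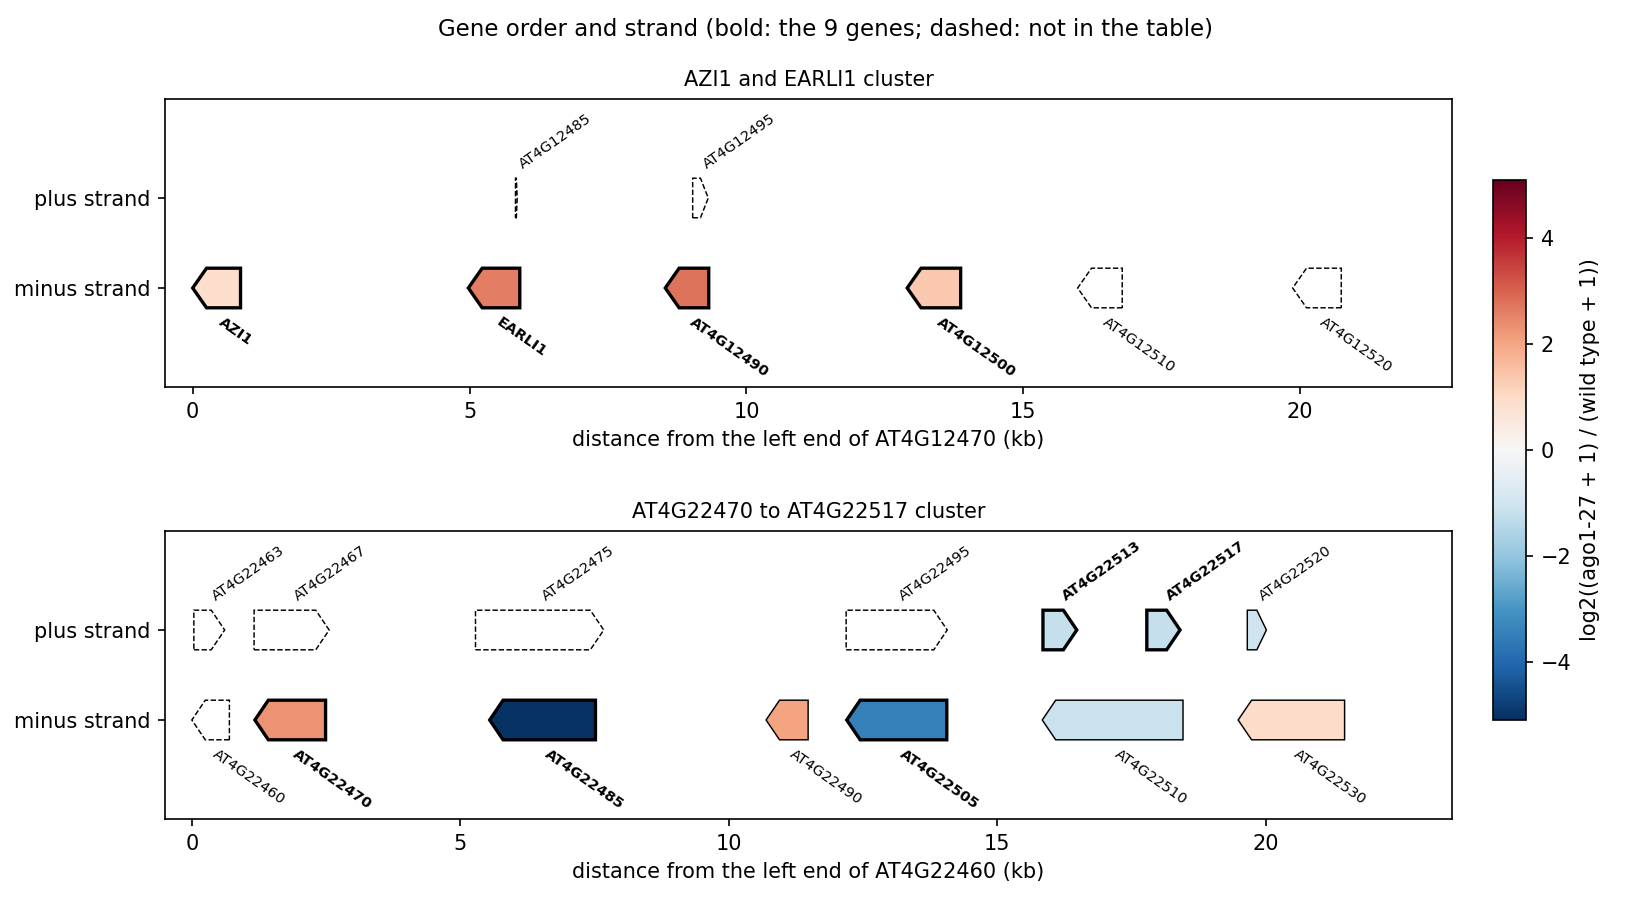
Map of both clusters, with distance from the left end of the first gene drawn in kb and genes placed by strand. Fill gives the log2 ratio of ago1-27 to wild type with 1 added to each RPKM, bold names mark the 9 genes and dashed outlines mark genes that the table does not list. The AZI1 cluster is all on the higher side, while the AT4G22470 cluster holds AT4G22470 on the higher side next to AT4G22485 on the lower side.

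In ago1-27, 5 of the 9 genes had a higher value and 4 a lower one. The threshold for a change was 1 on the log2(RPKM + 1) scale in either direction, for genes reaching 1 RPKM in a genotype, as all 9 did. By that rule 4 were higher, EARLI1, AT4G12490, AT4G12500 and AT4G22470. Of the 6606 genes compared, 11.3% were higher by the same rule. By that rule 4 were lower, AT4G22485, AT4G22505, AT4G22513 and AT4G22517, against 10.5% of the genes compared. AZI1 was higher but did not pass. The genes were chosen with these values known, so the counts describe them and nothing is read from their excess. Their median difference was 0.94 on the log2(RPKM + 1) scale, beside 0.62 over all genes compared, and it is the value of AZI1, which lies between groups that went opposite ways. The bracketed ranges are exact binomial 95% intervals for a ratio of reads, computed as if 1 average library had been read. They cover counting error only.

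**Figure D3:**
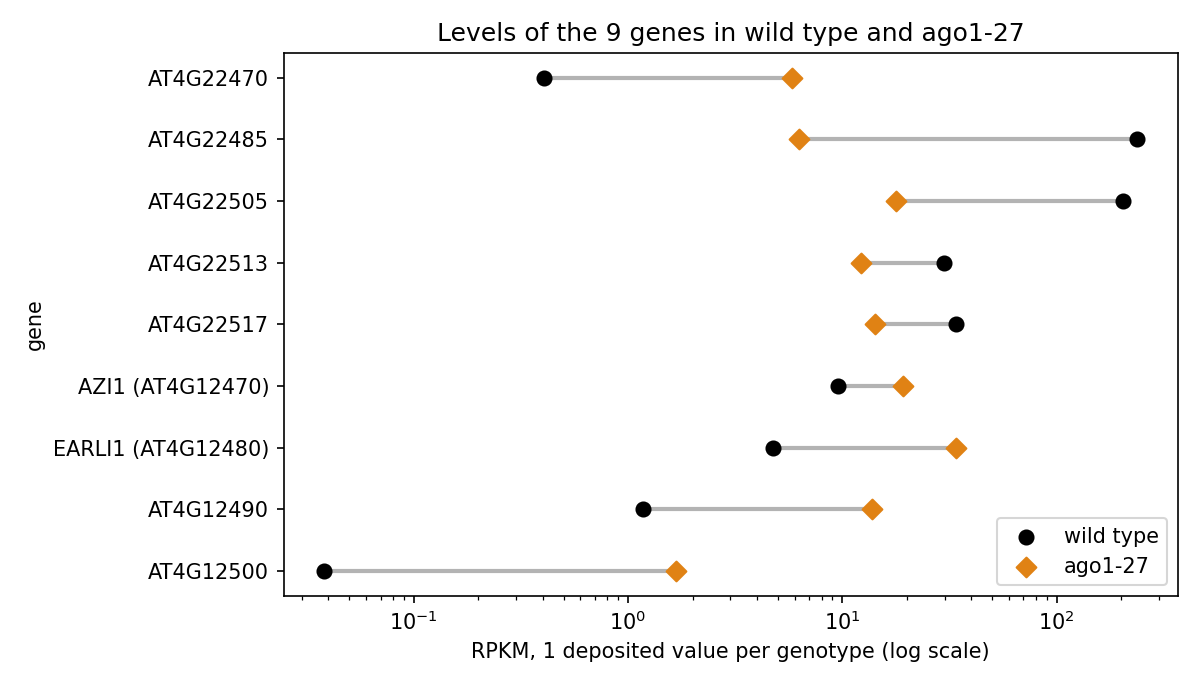
RPKM of each of the 9 genes in wild type (black circles) and ago1-27 (orange diamonds) on a log axis, 1 deposited value per genotype and no error bars. The wild-type values of the 5 genes from the AT4G22470 cluster spread from 0.407 to 237 RPKM, while their ago1-27 values lie between 5.80 and 17.8.

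The long proline-rich genes AT4G22485 and AT4G22505 were the 2 most abundant of the 9 in wild type and fell most. AT4G22485 (chromosome 4, 11844506 to 11846476) had 237 RPKM in wild type against 6.25 in ago1-27. It was 37.9-fold lower (32.3 to 45.1), the lowest log2(RPKM + 1) ratio of the 6606 genes compared. By the plain ratio of RPKM values it was rank 11 from the lowest. AT4G22505 (chromosome 4, 11851155 to 11853018) had 205 RPKM in wild type against 17.8 in ago1-27. It was 11.5-fold lower (10.4 to 12.8), rank 13 from the lowest on the log2(RPKM + 1) scale. In wild type their levels were alike, at 1.16 times as much RPKM for AT4G22485 as for AT4G22505. In ago1-27 AT4G22505 was the higher, at 2.84 times the RPKM of AT4G22485. About 5535 reads of 1 library stood behind the wild-type value of AT4G22485 and about 147 behind its ago1-27 value.

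AT4G22470, the third gene of that sequence group, went the other way. AT4G22470 (chromosome 4, 11840134 to 11841450) had 0.407 RPKM in wild type against 5.80 in ago1-27, 14.3-fold higher (6.64 to 42.0). Its wild-type value equalled the mean of 5, 7 and 7 reads in the 3 libraries at its annotated length of 1317 bases. With 19 reads in all, the wild-type level is the imprecise side of this ratio. In ago1-27 it was close to AT4G22485 in level, at 5.80 against 6.25 RPKM, where in wild type these genes were the lowest and the highest of their cluster.

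The near-identical copies AT4G22513 and AT4G22517 fell by like factors, with overlapping intervals. AT4G22513 (chromosome 4, 11854809 to 11855439) had 29.7 RPKM in wild type against 12.2 in ago1-27, 2.43-fold lower (1.90 to 3.14). AT4G22517 (chromosome 4, 11856743 to 11857362) was at 34.1 and 14.3 RPKM, 2.39-fold lower (1.89 to 3.02). The level of AT4G22517 over that of AT4G22513 was 1.15 in wild type and 1.16 in ago1-27. Because the copies share sequence, their values are not separate observations.

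Taken as a sum, the 5 genes of the cluster came to 506 RPKM in wild type against 56.3 in ago1-27, 8.98-fold lower, and AT4G22485 and AT4G22505 make up most of the wild-type sum. From the lowest to the highest of these 5 the span was 583-fold in wild type and 3.06-fold in ago1-27. The summed ratio and the ago1-27 span depend on leaving out AT4G22490, a lipid-transfer gene that lies among these genes but was not chosen. The wild-type span does not. With it, the 6 genes came to 551 and 242 RPKM, 2.27-fold lower, and the ago1-27 span was 32.0-fold.

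The AZI1 cluster had higher values in ago1-27 in all 4 genes. AZI1 (AT4G12470, chromosome 4, 7401087 to 7401951) had 9.54 RPKM in wild type against 19.3 in ago1-27, a ratio of 2.02 (1.57 to 2.59). Its log2(RPKM + 1) difference of 0.94 did not pass the threshold, but it does without a pseudocount. EARLI1 (AT4G12480, chromosome 4, 7406065 to 7406994) was at 4.73 and 34.0 RPKM, 7.20-fold higher (5.38 to 9.82). In wild type AZI1 was the higher of these close relatives, at 2.02 times the RPKM of EARLI1. In ago1-27 EARLI1 was the higher, at 1.77 times the RPKM of AZI1.

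AT4G12490 (chromosome 4, 7409621 to 7410406) had 1.17 RPKM in wild type against 13.8 in ago1-27, 11.8-fold higher (6.28 to 23.9). This gene's values could be split into libraries. At the annotated length of 786 bases they equalled the means of 7, 11 and 14 reads in wild type and of 126, 128 and 133 reads in ago1-27. The lowest ago1-27 library thus had 126 reads against 14 in the highest wild-type library, before scaling to library totals. How many other genes of the table are as far apart was not counted. No test was made, since the gene was chosen for its difference between genotypes. The split rests on inferred library totals and on the annotated length. For ago1-27, but not for wild type, 1 of 60 neighbouring lengths also gave whole reads.

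AT4G12500 (chromosome 4, 7413990 to 7414955) was barely detected in wild type. It was at 0.0383 RPKM there and 1.68 in ago1-27, where it was the lowest of the 9. At its annotated length these values stand for about 1.31 and 58.3 reads over 3 libraries. The ratio of 44.0 therefore has an interval of 9.91 to 2308 at the depth of 3 libraries. At the depth of 1 library, as used for the other genes, its lower bound is 4.62 and it has no upper limit. On the log2(RPKM + 1) scale its difference was 1.37, below the 2.77 of AT4G12490 and the 2.61 of EARLI1.

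Along the chromosome, from AZI1 through EARLI1 and AT4G12490 to AT4G12500, the wild-type level fell at each step and the ratio of RPKM values rose. The counting intervals of the ratios of EARLI1, AT4G12490 and AT4G12500 overlap, so the order of these ratios is not settled. With 1 added to each value the order of the ratios is no longer that of the map. The summed level of the 4 genes was 15.5 RPKM in wild type against 68.7 in ago1-27, 4.44-fold higher. The span from the lowest to the highest gene was 249-fold in wild type and 20.2-fold in ago1-27.

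**Figure D4:**
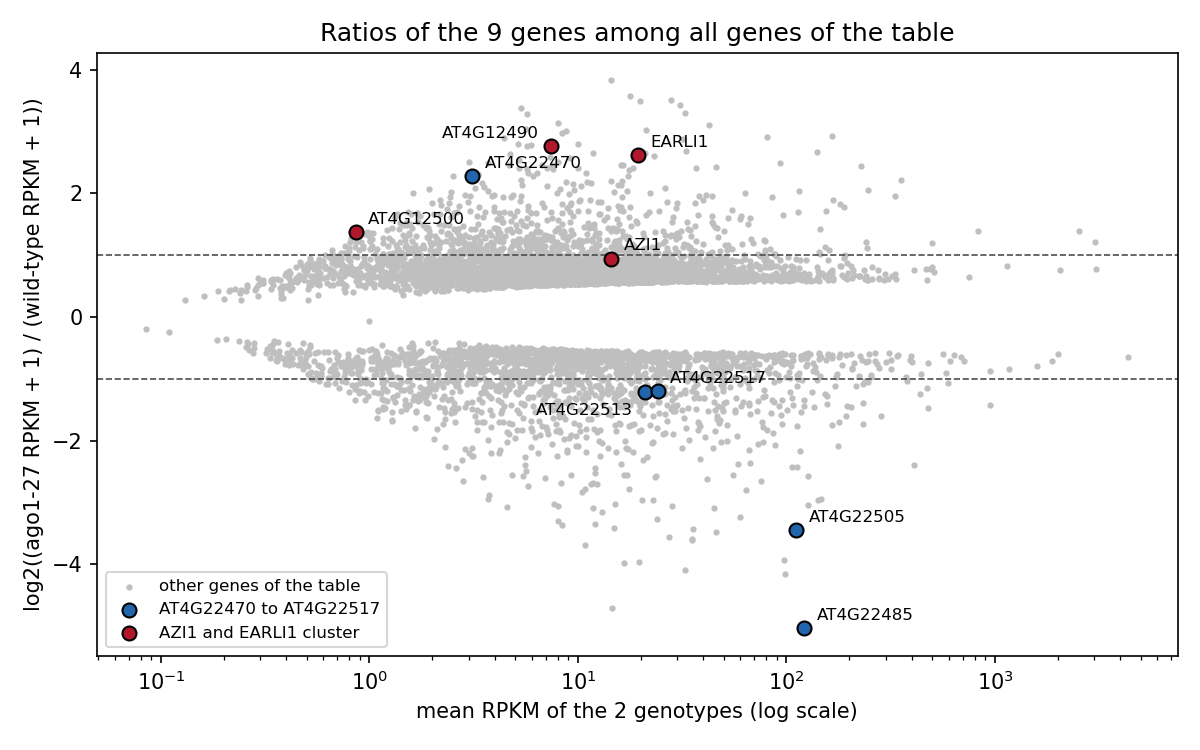
Log2 ratio of ago1-27 to wild type, with 1 added to each RPKM, against the mean RPKM of the 2 genotypes for every gene of the table (grey). The AT4G22470 cluster is blue, the AZI1 cluster is red and dashed lines mark the threshold. AT4G22485 is the lowest point, at -5.04, and AT4G12490 the highest of the 9, at 2.77.

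Reads of 50 bases from libraries that do not keep strand limit how surely these values belong to 1 gene. In the transcripts of AT4G22470, AT4G22485 and AT4G22505, 0 windows of 50 bases matched elsewhere in the genome with up to 2 mismatches. Parts of these genes repeat inside themselves, most in AT4G22485, where 28.1% of the windows occurred again in the same gene. AT4G22513 and AT4G22517 shared 213 windows, 36.6% and 37.3% of theirs, and 20 of these without a mismatch. AT4G12490 and AT4G12500 shared 178 windows, 50 of them identical. Over all other places, 24.2% of the windows of AT4G12490 and 21.2% of those of AT4G12500 had a match. AZI1 and EARLI1 had matches elsewhere for 6.50% and 7.60% of their windows and no identical one. How the authors treated reads with several matches is not given in the sources used here.

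Genes annotated on the other strand cover much of the AT4G22470 cluster. Exons of AT4G22475 lie over 93.5% of AT4G22485, those of AT4G22495 over 92.3% of AT4G22505 and those of AT4G22467 over 87.7% of AT4G22470. The table lists none of these 3, and reads of either strand cannot be told apart. AT4G22510, which the table lists, has exons over 60.9% of AT4G22513 and 45.2% of AT4G22517. It had 39.4 RPKM in wild type against 17.2 in ago1-27, a ratio of 0.437 (0.356 to 0.536) beside 0.412 and 0.418 for the genes it overlaps. In the AZI1 cluster, AT4G12495 covers 35.9% of AT4G12490 and AT4G12485 covers 3.44% of EARLI1. AZI1 and AT4G12500 had no overlapping gene.

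**Figure D5:**
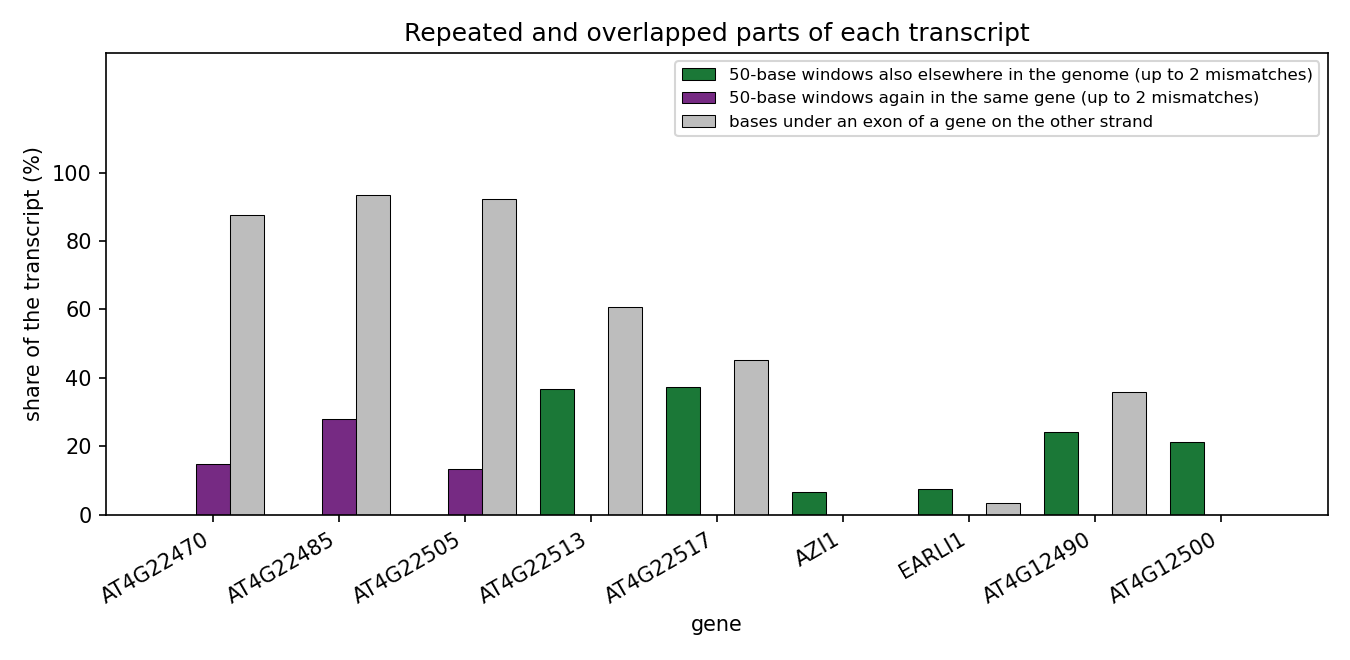
Share of each transcript, in percent, that matches elsewhere in the genome (green), that occurs again in the same gene (purple), both as 50-base windows with up to 2 mismatches, and that lies under exons of a gene on the other strand (grey). AT4G22485 has no window elsewhere but 93.5% of its bases under AT4G22475, while AT4G22513 and AT4G22517 have both kinds of sharing.

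The neighbours inside and beside the AT4G22470 cluster also went both ways. AT4G22490, a lipid-transfer gene between AT4G22485 and AT4G22505 that no other gene overlaps, had 44.7 RPKM in wild type against 186 in ago1-27, 4.16-fold higher (3.74 to 4.65). In wild type it had 0.189 times the RPKM of AT4G22485, and in ago1-27 29.8 times. AT4G22520, also of the lipid-transfer class, was at 14.3 and 6.43 RPKM, 2.22-fold lower (1.40 to 3.67). It lies wholly under AT4G22530, a methyltransferase gene at 3.17 and 7.17 RPKM that went the other way. AT4G22560, farther out, was at 2.37 and 5.98 RPKM. Of the 14 neighbours examined here, 5 were in the table. None of the 12 around the AZI1 cluster was, including the lipid-transfer genes AT4G12510, AT4G12520 and AT4G12530 next to AT4G12500.

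The starts of the genes carried few motifs in common. In the 300 bases from 250 before to 50 after the annotated start, on either strand, TTGAC, the core of the W-box bound by WRKY factors, was found in 9 of 9 genes and in 50.5% of 27443 protein-coding genes. AT4G22470 had 3 matches, AZI1 had 2 and the others 1 each, so genes that rose and genes that fell both held it. TATAAA was found in 7 of 9, against 52.1% of all. TGACG, which overlaps TTGAC where both are read from TTGACG, was in 2 of 9, against 23.1%. CACGTG, the G-box, and GCCGCC, the GCC-box, were in 0 of 9, against 7.68% and 2.57%. CCGAC, the core bound by CBF factors in the cold, was in 0 of 9, against 15.0%. A match is a description of the letters only, and these genes share ancestry. Of the 250 bases before the start, 68.6% of alignment columns were identical between AT4G22513 and AT4G22517 and 63.2% between AZI1 and EARLI1. Other pairs were at 43.5% to 57.0%.

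The upstream stretches of a gene that rose and of one that fell are given to show these matches. They lie at chr4:7406995-7407244 and chr4:11853019-11853268 in TAIR10.1, both on the minus strand and read towards the gene, with letters of the searched motifs in capitals.
EARLI1: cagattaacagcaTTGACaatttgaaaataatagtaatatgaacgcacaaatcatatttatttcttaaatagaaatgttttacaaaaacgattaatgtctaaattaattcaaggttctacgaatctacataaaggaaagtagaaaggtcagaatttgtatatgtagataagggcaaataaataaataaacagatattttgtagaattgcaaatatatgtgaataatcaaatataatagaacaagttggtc
AT4G22505: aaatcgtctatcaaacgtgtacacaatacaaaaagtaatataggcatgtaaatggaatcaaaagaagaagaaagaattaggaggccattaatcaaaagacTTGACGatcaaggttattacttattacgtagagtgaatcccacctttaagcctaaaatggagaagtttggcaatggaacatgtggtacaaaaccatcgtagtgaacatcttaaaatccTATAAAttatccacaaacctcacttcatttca

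The gene lists that follow are set beside the whole table, where 69.4% of genes had a higher value. Of the 6606 genes compared, 11.3% passed upwards and 10.5% downwards, with a median log2 difference of 0.62.

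Other proline-rich and 8-cysteine genes also went both ways. Of 21 such genes listed from general knowledge, 9 were in the table, 5 higher and 4 lower, and 4 passed the threshold upwards and 2 downwards. Their median log2 difference was 0.75, beside 0.62 over all genes compared. Besides AT4G22490 and AT4G22520, AT1G62500 had 9.12 RPKM in wild type against 28.7 in ago1-27. ELP (EXTENSIN-LIKE PROTEIN) was at 649 and 293 RPKM, 2.22-fold lower. Of 111 genes annotated in the lipid-transfer class, the members of the 2 clusters left out, 23 were in the table, 16 higher and 7 lower. Of these, 11 passed upwards and 2 downwards, with a median of 0.89. This class is not separate from the other lists. It includes AT4G22490, AT4G22520 and AT1G62500 again, and also genes of the lists below, such as AT2G18370. The table as a whole had 4711 higher and 2080 lower.

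Of 14 typical lipid transfer proteins, which lack the proline-rich part, 6 were in the table. All 6 were higher in ago1-27, as were 69.4% of the table's genes, and 3 of them passed the threshold. Their median log2 difference was 1.05, beside 0.62 over all. LTP4 had 8.04 RPKM in wild type against 76.6 in ago1-27. LTP3 was at 1.16 and 16.4 RPKM, and as close tandem copies these may share reads. AT2G18370 was at 1.17 and 4.24 RPKM. LTP6, at 64.9 and 116 RPKM, did not pass.

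Of 16 genes that act in systemic immunity or respond to salicylic acid, 8 were in the table, 6 higher and 2 lower. Of these, 5 passed the threshold upwards and 1 downwards, beside 11.3% and 10.5% of all genes compared. The median log2 difference was 1.19. PR1, PR2 and PR5, pathogenesis-related genes that respond to salicylic acid, had 6.14, 5.19 and 6.91 RPKM in wild type against 26.5, 26.1 and 25.1 in ago1-27. MPK3, a defence-related MAP kinase, was at 199 and 72.1 RPKM. DIR1, the lipid-transfer protein known to act with AZI1, was not in the table.

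Of 12 markers of cold, abscisic acid and drought, 7 were in the table, 4 higher and 3 lower. Of these, 3 passed the threshold upwards and 1 downwards, with a median of 0.73 beside 0.62 over all genes compared. RD29B, a drought-responsive and abscisic acid-responsive gene, had 0.715 RPKM in wild type against 6.35 in ago1-27. KIN1, a cold-inducible gene, was at 5.58 and 19.8 RPKM. RAB18, a dehydrin, was at 23.8 and 67.2 RPKM. CBF1, a transcription factor of the cold response, was at 1.22 and 0.0463 RPKM, so the markers of cold themselves went both ways.

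Among other genes with a wild-type level of at least 5 RPKM, 3 lay nearest to AT4G22485 on the log2(RPKM + 1) scale. They were the F-box gene AT1G73120, the APS reductase APR1 and the phosphate sensor SPX1. Since AT4G22485 had the lowest ratio of all, its nearest genes are by construction the next lowest. APR1 had 187 RPKM in wild type against 9.48 in ago1-27, and SPX1 was at 62.2 and 2.70 RPKM. AT1G73120 was at 29.0 and 0.145 RPKM, a lower plain ratio than that of AT4G22485. This likeness rests on 2 values per gene.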

How the data were processed

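Libraries from total RNA gave unstranded single-end reads of 50 nt, per the labels' protocols. The submitters' processing notes name TopHat2 2.0.11 and the build TAIR10. Not given in the sources used here are the counting of reads, the handling of reads with several matches and the selection of rows. Per genotype, the authors deposited 1 RPKM value, and beside it a fold change, the ratio of mutant to wild type, which equals the quotient of the RPKM values to within 4.17e-08.

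The genes, lists and tests were chosen with earlier results of these data known. Differences are on the log2(RPKM + 1) scale, with a threshold of 1 and at least 1 RPKM in either genotype, which left out 185 genes. With no replicate values, no test was run. The text names the 9 genes, AGO1, neighbours that the table lists, up to 4 genes per list with the largest difference and the 3 genes nearest to AT4G22485. AT4G12510, AT4G12520, AT4G12530, DIR1 and the genes on the other strand were named outside that rule.

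Library totals are those at which the most low values became whole reads, up to 30 per value, at TAIR10.1 transcript lengths. Each rests on few genes, 13 to 17 in wild type and 9 to 12 in ago1-27, where the next candidates had 7 and 6. Reads behind a value were estimated from mean totals of 11845532 (wild type) and 11955563 (ago1-27). A value was split into libraries only where 1 set of whole reads for 3 libraries matched it. The split was tested on simulated low read counts with the wild-type totals taken as known, where 200 of 200 values were recovered. Neither the ago1-27 totals nor counts as high as those of AT4G12490 in ago1-27 were simulated. The search for the totals was not tested in this way. All coordinates, lengths and sequences are those of TAIR10.1 and its RefSeq annotation, which may differ from the annotation behind the table. Windows of 50 bases were aligned with bwa 0.7.19. Codons were read from the coding sequences, and alignments were global (biopython 1.88). The scripts used scipy 1.17.1, pandas 2.3.3, numpy 2.4.6, matplotlib 3.10.9 and Python 3.11.15.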

Additional observations from a re-analysis of the deposited data

How the results depend on the processing

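All 9 genes kept the direction of their ratio with pseudocounts of 0.1 and 0.5, with none, without a filter, with quantile normalization and with values rescaled by the median of ratios. With at least 5 RPKM required, the 8 genes compared kept it too, and AT4G12500 was left out. The lower genes numbered 4 under each of these and the higher genes 3 to 5. AZI1 passed with a pseudocount of 0.1 or none. At a 4-fold threshold 2 genes were lower and 3 higher. The shares of all genes compared moved more. They were 11.3% higher and 10.5% lower as reported, 21.6% and 15.4% with no pseudocount, 1.42% and 1.73% at 4-fold, 6% and 18.4% with quantile normalization and 3.34% and 30% with the median of ratios. The median of ratios was 1.62 over all rows, and dividing by it assumes a table of mostly unchanged genes, which this one is not. The median difference of the 9 genes, 0.94, became 0.29 after it, 0.64 with quantile normalization and -0.13 with at least 5 RPKM, where AT4G12500 drops out by construction. Few wild-type reads limit the ratios of AT4G12500 and AT4G22470. No paired analysis was possible because the table has 1 value per genotype.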

Other observations

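Beyond chromosome 4, AT5G55450, also annotated in the lipid-transfer class, had 18.2 RPKM in wild type against 143 in ago1-27. AT5G55460, whose locus number follows it, was at 1.91 and 16.3 RPKM. Both were chosen after their values were seen.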
